A study of Mus musculus with 18 samples.

Results

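The transcripts examined here are those of 10 circadian clock and clock output genes in the mouse uterus: Per1, Per2, Per3, Cry2, Arntl, Nr1d1, Nr1d2, Dbp, Tef and Hlf. They were taken by symbol from a table of 22238 gene symbols, and all 10 were in it. All 10 also passed the filter on low counts, which left 15494 genes for testing.

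The tissue was whole uterus homogenate of ovariectomized adult CD-1 mice, an outbred stock, so every group shared the loss of ovarian hormones. Animals received the chemotherapy drug doxorubicin (DOX), which damages DNA by trapping topoisomerase II, or the vehicle phosphate-buffered saline (PBS), each combined with oil (OIL), estradiol (E2) or progesterone (P4). This gave 6 groups of 3 libraries: PBS OIL, DOX OIL, PBS E2, DOX E2, PBS P4 and DOX P4. The series asks how DOX changes the uterine response to estrogen. The labels give no dose, no interval after treatment and no hour of collection, so levels could not be set against the hour of day. If the hour differed between groups, its part cannot be told apart from that of DOX, E2 or P4. Nor do the labels say that replicates came from different animals. The p-values therefore cover only the variation among these libraries, which may be technical.

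The mammalian clock is a feedback loop of transcription. Arntl (also called Bmal1) and Clock activate E-box promoters, among them those of the Per and Cry genes, whose proteins then repress Arntl and Clock. The nuclear receptors Nr1d1 and Nr1d2 (REV-ERB alpha and beta) repress Arntl through RORE elements, and the PAR bZIP factors Dbp, Tef and Hlf carry the rhythm to output genes through D-box elements. Arntl and its targets peak at opposite times of day in many tissues, and the uterus has such a clock of its own.

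Depth ranged from 18042357 counts in DOX OIL replicate 3 to 39783785 in PBS E2 replicate 1, with DOX E2 replicate 3 next at 28122299. All 10 uterine identity genes were detected, with a summed level of 2017 to 4212 CPM (counts scaled to a common library size) over the 18 libraries. PBS E2 replicate 1 stood apart from its group. It had a summed level of 7959 CPM over 20 adipocyte markers, against 637 and 1835 CPM in the other PBS E2 libraries. Within PBS E2 it was also lowest for 7 of the 10 clock genes (Per1, Per3, Nr1d1, Nr1d2, Dbp, Tef and Hlf) and highest for Arntl and Cry2. Values without it are given beside the results that it moved.

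RefSeq promoter windows of build GRCm38.p6 were matched for 9 of the 10 genes. The 250 bases before each annotated start were searched on both strands for 4 sequences through which clock and cAMP signals act. These were the E-box CACGTG, the D-box TTATGTAA, the RORE core TAGGTCA and the CRE TGACGTCA. Of the 9 genes, 2 held an E-box, 1 a D-box, 1 a CRE and 0 a RORE. Among all 27025 genes with a window of this length the shares were 6.86%, 0.977%, 1.77% and 2.55% in the same order. No match overlapped a match of another motif. The 4 windows below show 1 window with a match for each gene that had any. All 4 genes were lower in DOX E2 than in PBS E2, where 20.6% of all tested genes were lower. Of the genes with a window but no match, Nr1d1, Nr1d2 and Dbp were lower too, Cry2 was not called and Arntl was higher. Each window is written 5′ to 3′ on the strand of its gene, with matched letters in capitals. The Per1 window is chr11:69098699-69098948 (plus strand) and its E-box lies 166 to 161 bases before the start. The Per3 window is chr4:151044666-151044915 (minus strand) and holds a D-box at 205 to 198 bases and another at 158 to 151. The Tef window is chr15:81802423-81802672 (plus strand) with an E-box at 127 to 122 bases. The window of another Tef start, not shown, also held an E-box, at 138 to 133 bases. The Hlf window is chr11:90390918-90391167 (minus strand) with a CRE at 9 to 2 bases.
Per1: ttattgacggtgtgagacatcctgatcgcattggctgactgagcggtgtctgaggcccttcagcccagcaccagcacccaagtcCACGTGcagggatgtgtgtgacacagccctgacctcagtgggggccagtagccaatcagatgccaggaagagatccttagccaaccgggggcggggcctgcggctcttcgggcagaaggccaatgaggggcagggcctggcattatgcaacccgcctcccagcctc
Per3: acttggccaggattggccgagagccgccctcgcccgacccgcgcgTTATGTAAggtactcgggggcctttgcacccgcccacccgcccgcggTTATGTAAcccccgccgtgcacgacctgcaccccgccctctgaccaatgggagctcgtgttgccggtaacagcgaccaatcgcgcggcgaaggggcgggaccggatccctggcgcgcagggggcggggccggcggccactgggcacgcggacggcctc
Tef: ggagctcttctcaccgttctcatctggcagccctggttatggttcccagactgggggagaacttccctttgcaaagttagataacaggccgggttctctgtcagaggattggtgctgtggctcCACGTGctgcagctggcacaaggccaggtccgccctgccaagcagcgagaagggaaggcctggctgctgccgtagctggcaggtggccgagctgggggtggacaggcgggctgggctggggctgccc
Hlf: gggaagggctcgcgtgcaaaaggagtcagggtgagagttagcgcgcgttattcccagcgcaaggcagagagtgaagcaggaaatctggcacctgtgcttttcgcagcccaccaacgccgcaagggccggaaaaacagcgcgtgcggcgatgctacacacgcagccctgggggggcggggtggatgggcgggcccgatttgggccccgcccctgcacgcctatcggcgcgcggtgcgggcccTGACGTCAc
A match describes the letters only, and no binding was measured here.

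On GRCm38 with GENCODE M21 the genes lie at chr11:69095217-69109960 (Per1), chr1:91415982-91459324 (Per2), chr4:151003652-151044665 (Per3), chr2:92403646-92434043 (Cry2) and chr7:113207465-113314126 (Arntl). The others lie at chr11:98767932-98775333 (Nr1d1), chr14:18204054-18239127 (Nr1d2), chr7:45705088-45710203 (Dbp), chr15:81802421-81826863 (Tef) and chr11:90336536-90390895 (Hlf). Nr1d1 shares 263 exon bases with Thra on the opposite strand. Dbp shares 539 exon bases with Sphk2 on the opposite strand. The strand setting of the counting is not given in the sources used here, so reads from these shared bases cannot be assigned to 1 gene.

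Per kilobase of exon, the PBS OIL uterus held most Tef and least Arntl. Mean levels in CPM per kilobase (± SD, n = 3) ran from 74.3 ± 6.69 for Tef through 66.9 ± 8.77 for Dbp, 65.5 ± 7.41 for Nr1d1 and 58.9 ± 8.61 for Nr1d2. Per3 followed at 43.1 ± 6.0, then Per2 at 35.7 ± 1.48, Per1 at 26.7 ± 1.38, Cry2 at 21.3 ± 1.91 and Hlf at 17.9 ± 1.7. Arntl stood at 0.786 ± 0.16, below every library of the other 9 genes in that group. Neighbours in this order overlapped between libraries from Tef to Nr1d2 and between Cry2 and Hlf. In DOX E2 the order was another one. Per2 led at 39.1 ± 1.58 CPM per kilobase, followed by Nr1d2 at 19.2 ± 3.45, Cry2 at 18.6 ± 1.45, Tef at 11.7 ± 1.89 and Per1 at 9.35 ± 2.02. Nr1d1 (3.49 ± 1.06), Dbp (3.2 ± 0.359), Arntl (2.96 ± 0.325) and Per3 (2.95 ± 0.346) overlapped from neighbour to neighbour, and Hlf was lowest at 2.11 ± 0.155.

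Across all 18 libraries the genes differed in how far they moved. The highest level was 33.8 times the lowest for Nr1d1, 32.5 times for Dbp, 19.3 times for Per3 and 13.7 times for Hlf. The ratio was 7.69 for Tef, 6.33 for Per1, 5.11 for Nr1d2 and 4.93 for Arntl. Per2 and Cry2 moved least, by 1.82 and 1.77 times. Arntl was the shallowest, with 103 to 473 counts per library.

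**Figure D1:**
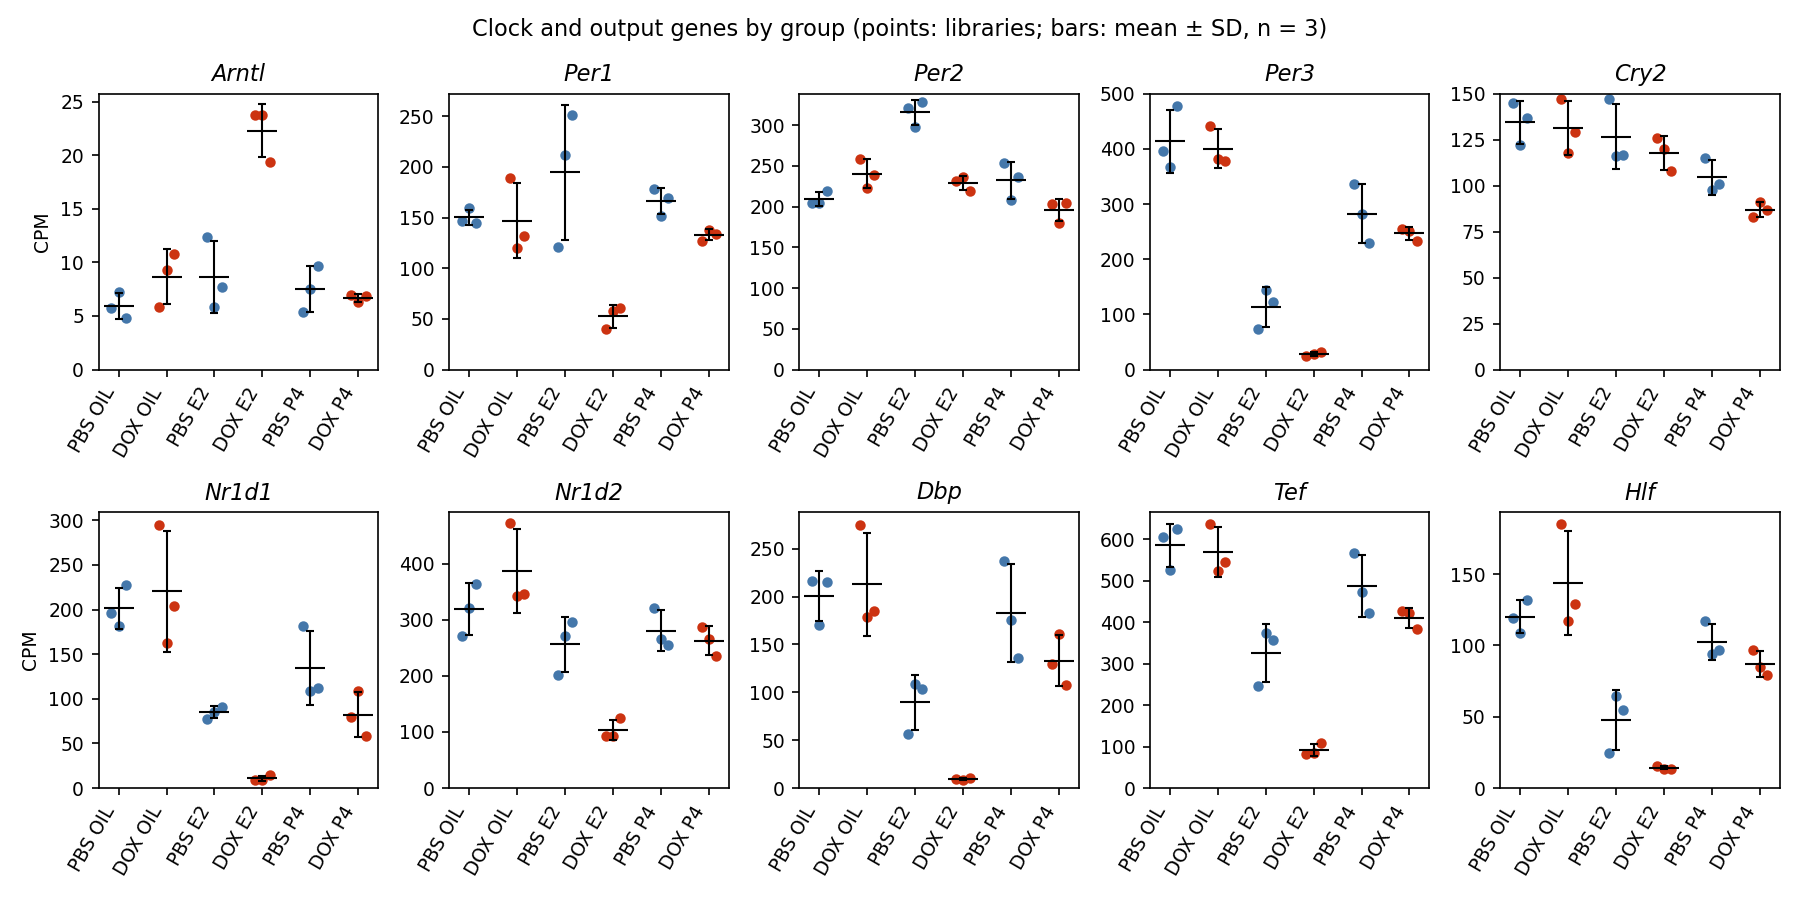
Level of each of the 10 genes in every library (CPM), with the 3 libraries of each of the 6 groups as points and bars for the group mean ± SD. In DOX E2 the points of Dbp, Nr1d1, Nr1d2, Per1, Per3, Tef and Hlf lie below those of the other groups and the points of Arntl above them, while those of Cry2 overlap with PBS E2.

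DOX under E2 was the comparison in which most of these genes differed. Of the 10 genes, 8 were lower in DOX E2 than in PBS E2 and 1, Arntl, was higher, at an adjusted p under 0.05 in edgeR's quasi-likelihood test. Among all tested genes 41.0% were called in this comparison, 20.6% lower and 20.4% higher. The median log2 fold change was -1.79 over the 10 genes and 0.02 over all genes tested. Without PBS E2 replicate 1 the counts were again 8 lower and 1 higher, with a median of -2.04. The same 9 genes passed in every alternative analysis, each library left out in turn included.

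Arntl, the activator of the loop, read 23.7, 23.7 and 19.4 CPM in the DOX E2 libraries and 12.4, 5.85 and 7.7 CPM in the PBS E2 libraries. All DOX E2 libraries were above all PBS E2 libraries and above the other 4 groups. The log2 fold change was 1.35 ± 0.28 (SE, adjusted p = 0.00136, edgeR), and 1.71 ± 0.28 without PBS E2 replicate 1.

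The 3 Per genes, which repress the activators, fell unequally. Per1 stood at 39.6, 58.1 and 60.3 CPM in DOX E2, against 121, 212 and 251 CPM in PBS E2. Per3 stood at 24.8, 28.7 and 31.5 CPM against 74.1, 144 and 122 CPM. Per2 stood at 231, 237 and 219 CPM against 321, 298 and 328 CPM. For all 3 genes the groups did not overlap, and Per2 kept the most of its PBS E2 level. Per1 fell by 1.88 on the log2 scale (SE 0.23, adjusted p = 2.57e-05, edgeR) and Per3 by 2.0 (SE 0.2, adjusted p = 6.59e-06). Per2 fell by 0.46 (SE 0.08, adjusted p = 0.000589). Cry2, which acts with the Per proteins, was 126, 120 and 108 CPM in DOX E2 and 147, 116 and 117 CPM in PBS E2. These values overlapped, and the log2 fold change of -0.11 ± 0.11 was not called (adjusted p = 0.454, edgeR).

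Both REV-ERB genes were lower, Nr1d1 by far more. Nr1d1 read 8.73, 9.03 and 14.5 CPM in DOX E2 and 77.7, 85.7 and 91.2 CPM in PBS E2. Nr1d2 read 93.2, 92.5 and 125 CPM against 202, 272 and 296 CPM. Neither gene had a DOX E2 library within the range of PBS E2. Nr1d1 fell by 2.97 on the log2 scale (SE 0.29, adjusted p = 5.09e-06, edgeR) and Nr1d2 by 1.31 (SE 0.18, adjusted p = 5.7e-05). Thra, the thyroid hormone receptor gene that overlaps Nr1d1, also fell, from 109 ± 27.8 to 25.7 ± 4.07 CPM (log2 fold change -2.09 ± 0.17, adjusted p = 1.14e-06).

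The PAR bZIP outputs fell together. Dbp was 9.71, 8.46 and 10.6 CPM in DOX E2 and 56.5, 109 and 103 CPM in PBS E2. Tef was 82.8, 84.2 and 109 CPM against 245, 374 and 357 CPM. Hlf was 15.3, 13.5 and 13.5 CPM against 24.3, 64.5 and 54.8 CPM. In each of these genes the DOX E2 libraries lay below all others of the study, and PBS E2 replicate 1 lay nearest to them. Dbp fell by 3.21 on the log2 scale (SE 0.28, adjusted p = 2.09e-06, edgeR), Tef by 1.82 (SE 0.16, adjusted p = 2.53e-06) and Hlf by 1.76 (SE 0.27, adjusted p = 0.00016). Without PBS E2 replicate 1 the log2 fold changes were -3.46 for Dbp, -1.99 for Tef and -2.08 for Hlf. Sphk2, whose exons overlap those of Dbp, had a log2 fold change of 0.0 ± 0.11 on the same libraries (adjusted p = 0.987; -0.07 to 0.03 without a library).

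**Figure D2:**
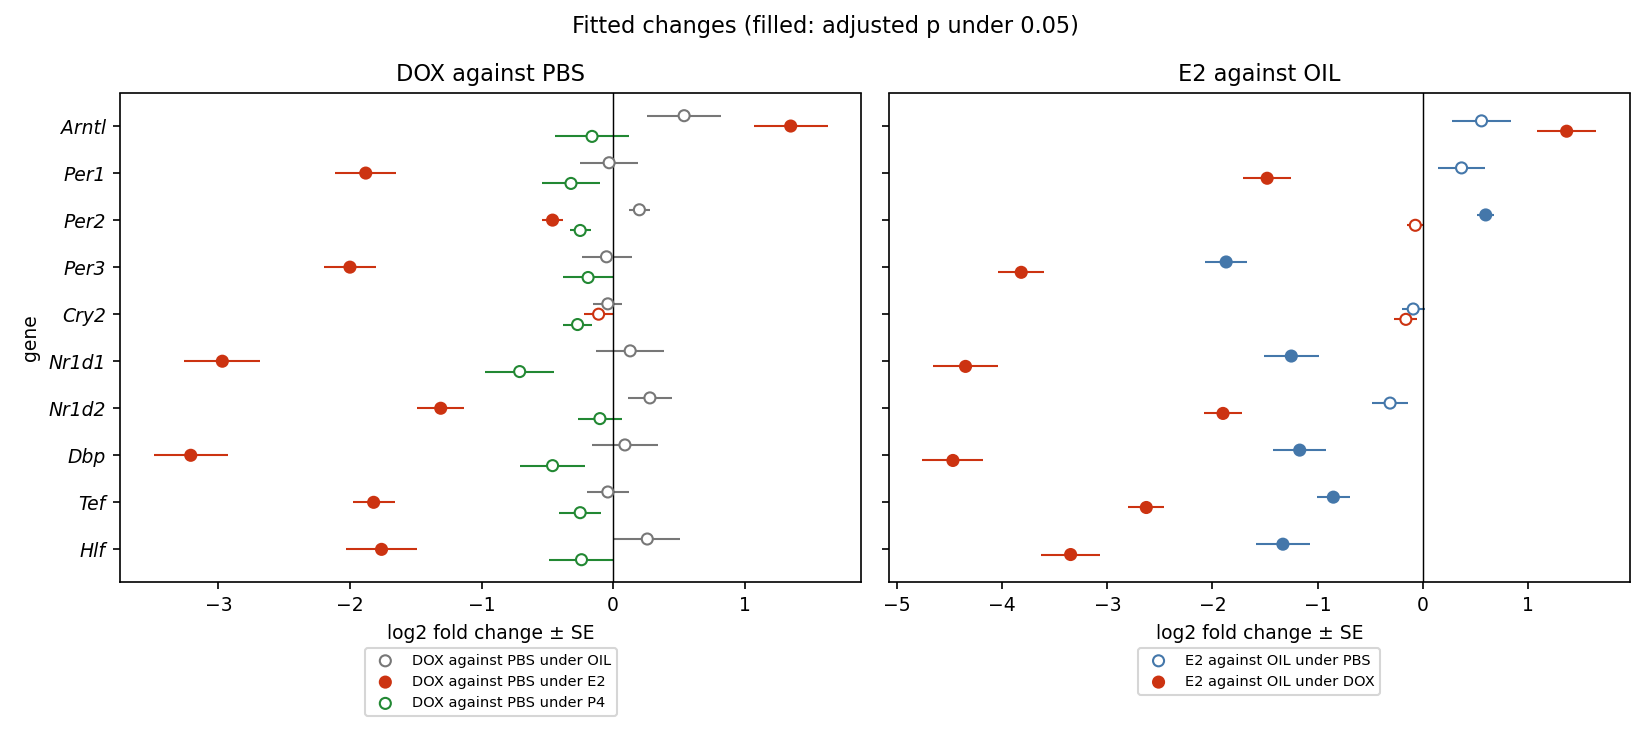
Fitted log2 fold changes (± SE) of the 10 genes for DOX against PBS with OIL, E2 or P4 (left) and for E2 against OIL in the PBS and DOX arms (right). Filled points passed an adjusted p of 0.05. Under E2 the DOX change is below 0 for 9 genes, Cry2 unfilled among them, and above 0 for Arntl, while no point is filled under OIL or P4.

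Adipocyte transcripts differed in the same comparison. Of 19 tested adipocyte markers 18 fell and 0 rose with DOX under E2, with a median log2 fold change of -4.23. Without PBS E2 replicate 1, 7 of the 19 were called lower and the median was -2.67. Their summed level was 191, 202 and 502 CPM in the DOX E2 libraries and 7959, 637 and 1835 CPM in PBS E2. Of the 20 markers 14, 17 and 20 were above 0 in the DOX E2 libraries. Adipoq, the adiponectin gene, was at 0, 0.103 and 12.6 CPM there and at 268, 16.0 and 58.7 CPM in PBS E2. Plin1, a lipid droplet coat gene, was at 0, 0 and 4.76 CPM in DOX E2. In a fit with the adipocyte score as a covariate the 9 clock genes were still called. Dbp then had a log2 fold change of -3.29 ± 0.4, Nr1d1 of -2.49 ± 0.38, Per3 of -2.11 ± 0.29 and Arntl of 1.55 ± 0.46. Adipocyte markers differed between these groups, so the covariate fit cannot tell their part from that of DOX. Among markers of other cell types, 2 of 10 smooth muscle, 2 of 8 stromal, 1 of 7 endothelial and 2 of 6 oviduct and ciliated cell markers were lower. Of all tested genes 20.6% were lower and 20.4% higher in this comparison. Of 8 epithelial markers 2 were higher, as was 1 stromal and 1 endothelial marker, and 0 of 6 macrophage, 0 of 4 neutrophil and 0 of 5 B and plasma cell markers were called. In bulk tissue, fewer cells of a type and less RNA per cell cannot be told apart.

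Without E2, a difference of this kind between the DOX and PBS arms was not found. Under OIL 0 of the 10 genes were called by edgeR and 0 by DESeq2, and 0.0129% of all tested genes were called by edgeR. At an unadjusted p under 0.05 edgeR gave 1 of the 10 genes, Per2, and 8.09% of all genes. Per2 read 259, 223 and 239 CPM in DOX OIL and 204, 204 and 219 CPM in PBS OIL. These groups did not overlap, but the log2 fold change of 0.2 ± 0.08 had an adjusted p of 0.59. Dbp read 275, 179 and 185 CPM in DOX OIL and 216, 170 and 215 CPM in PBS OIL, with overlap and a log2 fold change of 0.09 ± 0.25. Arntl had the widest difference, 8.64 ± 2.56 against 5.92 ± 1.21 CPM (mean ± SD, n = 3; log2 fold change 0.54 ± 0.28, adjusted p = 0.649). The other 7 had log2 fold changes between -0.05 (Per3) and 0.28 (Nr1d2). DOX OIL replicate 1 was the highest of all 18 libraries for Nr1d1, Nr1d2, Dbp, Tef and Hlf, at 295, 473, 275, 637 and 185 CPM.

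Under P4 edgeR and DESeq2 called 0 of the 10 genes in the DOX arm against the PBS arm, and edgeR called 0% of all tested genes. At an unadjusted p under 0.05 the edgeR fit gave 3 of the 10, Per2, Nr1d1 and Cry2, and 5.31% of all genes. All 10 fitted changes were below 0, with a median of -0.25. The largest was that of Nr1d1, at 79.4, 109 and 58.3 CPM in DOX P4 and 182, 109 and 112 CPM in PBS P4. The highest DOX P4 and the lowest PBS P4 library were both at 109 CPM, and the log2 fold change was -0.71 ± 0.26. Dbp came next, with -0.46 ± 0.25 and groups that overlapped.

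In the PBS arm, 5 of the 10 genes were lower in PBS E2 than in PBS OIL, 1, Per2, was higher and 4 were not called. Of all tested genes 61.4% were called, 31.9% lower and 29.6% higher, so the share of these genes called was close to that background. Without PBS E2 replicate 1, 5 were lower and 2 higher. Per3 fell from 396, 367 and 478 CPM to 74.1, 144 and 122 CPM, a log2 fold change of -1.87 ± 0.2 (adjusted p = 8.76e-07, edgeR). Hlf changed by -1.33 ± 0.26 (adjusted p = 0.000329), Nr1d1 by -1.25 ± 0.26 (adjusted p = 0.000739), Dbp by -1.17 ± 0.25 (adjusted p = 0.000807) and Tef by -0.85 ± 0.16 (adjusted p = 0.000245). Per2 rose from 204, 204 and 219 CPM to 321, 298 and 328 CPM (0.6 ± 0.08, adjusted p = 1.81e-05). None of these 6 genes overlapped between the groups.

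The other 4 genes were not called in the PBS arm. Per1 stood at 121, 212 and 251 CPM in PBS E2 and 147, 159 and 145 CPM in PBS OIL, so that 1 library was below and the others above the oil range. Its log2 fold change was 0.37 ± 0.22 (adjusted p = 0.157, edgeR) and became 0.62 ± 0.18 (adjusted p = 0.0089) without PBS E2 replicate 1. Arntl had 0.56 ± 0.28 (adjusted p = 0.0961) and passed, with 0.77 and an adjusted p of 0.0276, without PBS E2 replicate 2. It had 0.2 ± 0.27 without PBS E2 replicate 1. Nr1d2 had -0.31 ± 0.17 and Cry2 -0.09.

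In the DOX arm 7 genes were lower in DOX E2 than in DOX OIL, Arntl was higher, and Per2 and Cry2 were not called. Of all tested genes 72.6% were called, 37.5% lower and 35.1% higher, so the share of these genes called was near that background. Dbp changed by -4.47 ± 0.29 on the log2 scale (adjusted p = 2.34e-09, edgeR), Nr1d1 by -4.35 ± 0.31, Per3 by -3.82 ± 0.22 and Hlf by -3.35 ± 0.28. Tef changed by -2.63 ± 0.17, Nr1d2 by -1.9 ± 0.18 and Per1 by -1.48 ± 0.23. Arntl rose by 1.37 ± 0.28 (adjusted p = 0.00035), from 5.8, 9.31 and 10.8 CPM to 23.7, 23.7 and 19.4 CPM. Per2 had -0.07 ± 0.08 (adjusted p = 0.472) and Cry2 -0.16 ± 0.11 (adjusted p = 0.208). This comparison and that of DOX under E2 share the DOX E2 libraries.

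The difference between the 2 responses to E2 was tested as an interaction. It was negative and called for 8 of the 10 genes, where 22.9% of all tested genes were called, 12.8% negative and 10.1% positive. The interaction was -3.3 ± 0.37 on the log2 scale for Dbp (adjusted p = 8.03e-05, edgeR), -3.1 ± 0.39 for Nr1d1 and -2.02 ± 0.37 for Hlf. It was -1.95 ± 0.28 for Per3, -1.85 ± 0.31 for Per1, -1.78 ± 0.22 for Tef and -1.59 ± 0.24 for Nr1d2. Per2, which rose with E2 in the PBS arm and was not called in the DOX arm, had -0.66 ± 0.12 (adjusted p = 0.00167). For Cry2 the interaction was -0.07 ± 0.15 (adjusted p = 0.77). Arntl had 0.81 ± 0.39 (adjusted p = 0.145), and 1.17 ± 0.36 (adjusted p = 0.0239) without PBS E2 replicate 1, so its call depended on that library. The other counts were unchanged without it, with 8 genes negative.

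Within each library the same values of Dbp and Arntl were also set against each other. A change of either gene alone moves their ratio, so it is no separate evidence of opposite movement. The ratio of Dbp to Arntl counts takes no scaling between libraries. It was 37.6, 23.6 and 44.7 in PBS OIL and 47.4, 19.2 and 17.2 in DOX OIL. It was 4.57, 18.6 and 13.4 in PBS E2 and 0.41, 0.357 and 0.545 in DOX E2. In PBS P4 it was 44.2, 23.3 and 14.1, and in DOX P4 18.7, 25.6 and 15.9. Dbp counts were below Arntl counts in the 3 DOX E2 libraries and above them in the other 15. Counts also follow exon length, which is 7.52 kilobases for Arntl and 2.99 for Dbp. Per kilobase the DOX E2 levels of these genes overlapped (mean 3.2 CPM for Dbp and 2.96 for Arntl). Of the PBS E2 libraries, replicate 1 had the lowest ratio.

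Ratios of related genes also differed, which shows that they changed unequally. The Nr1d1 to Nr1d2 ratio was 0.724, 0.566 and 0.624 in PBS OIL, 0.385, 0.315 and 0.308 in PBS E2 and 0.0936, 0.0975 and 0.116 in DOX E2. These 3 groups were separate and in that order. The ratio was 0.624, 0.473 and 0.589 in DOX OIL and 0.566, 0.409 and 0.435 in PBS P4. In DOX P4 it was 0.276, 0.409 and 0.247, which overlapped PBS E2. The Per1 to Per2 ratio was 0.377, 0.71 and 0.765 in PBS E2 and 0.171, 0.245 and 0.276 in DOX E2, again without overlap.

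**Figure D3:**
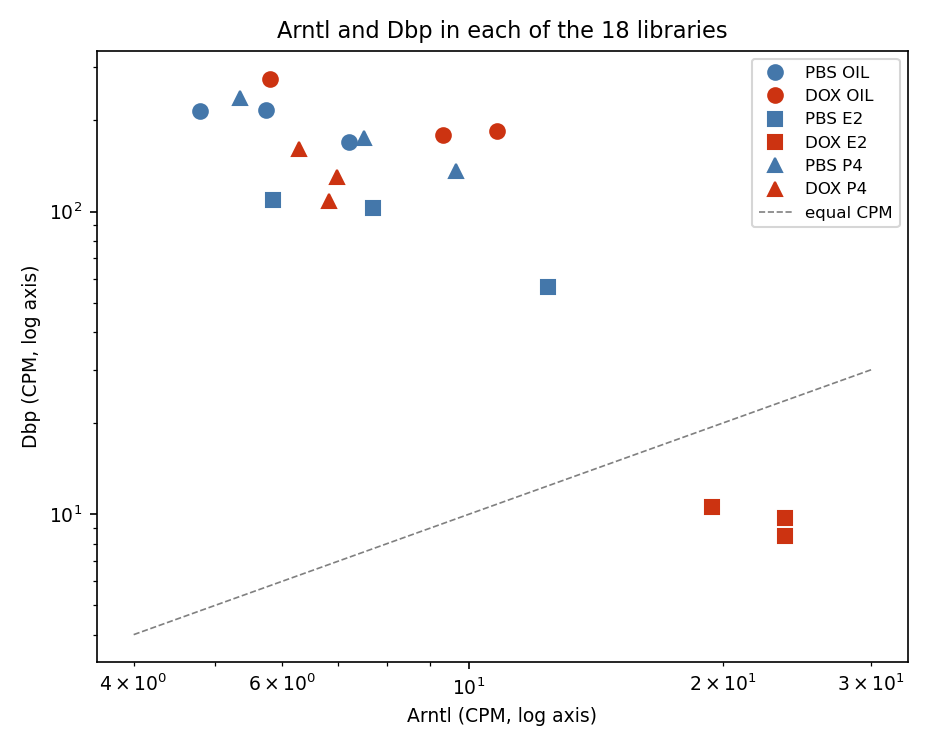
Level of Arntl (x axis, CPM, log scale) and of Dbp (y axis, CPM, log scale) in each of the 18 libraries. Colour shows the PBS or DOX arm and marker shape shows OIL, E2 or P4. The 3 DOX E2 libraries lie apart at 19.4 to 23.7 CPM of Arntl and 8.46 to 10.6 CPM of Dbp, and PBS E2 replicate 1 (12.4 and 56.5 CPM) lies nearest to them.

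With P4 most calls among these genes depended on single libraries. In the PBS arm 2 of the 10 genes were lower and 0 higher, where 31.8% of all tested genes were called, 15.6% lower and 16.2% higher. Cry2 read 115, 97.5 and 101 CPM in PBS P4 and 145, 122 and 137 CPM in PBS OIL, a log2 fold change of -0.36 ± 0.11 (adjusted p = 0.0205, edgeR). Per3 read 336, 282 and 229 CPM against 396, 367 and 478 CPM, a log2 fold change of -0.55 ± 0.19 (adjusted p = 0.0384). Both genes had groups that did not overlap. The count fell to 0 without PBS OIL replicate 1, PBS P4 replicate 2 or PBS P4 replicate 3, and to 1 without PBS OIL replicate 3. It was 0 with the adipocyte score as a covariate, where the estimates stayed close and the SE widened. Per3 then had -0.63 ± 0.24 (adjusted p = 0.0729, edgeR) and Cry2 -0.34 ± 0.14 (adjusted p = 0.0896). Cell type markers differed in the same comparison. Of 19 adipocyte markers 9 were lower and 1 higher, with a summed level of 371 to 720 CPM in PBS P4 and 1119 to 4043 CPM in PBS OIL. Smooth muscle markers were higher for 7 of 10 (16121 to 21208 against 8429 to 10174 CPM). Neutrophil markers were lower for 3 of 4 (1.8 to 2.2 against 4.5 to 45.6 CPM) and B and plasma cell markers for 3 of 5 (45.3 to 69.9 against 95.9 to 342 CPM). The part of these cell types in the result was not tested. Adipocyte markers differed between the groups, so the covariate fit cannot tell their part from that of P4. Nr1d1 had -0.59 ± 0.26 (adjusted p = 0.0968), and passed without PBS P4 replicate 1 (-0.87, adjusted p = 0.028).

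In the DOX arm 8 of the 10 genes were lower in P4 than in OIL and 0 were higher, where 29.8% of all tested genes were called, 15.1% lower and 14.7% higher. Nr1d1 changed most, from 295, 162 and 204 CPM to 79.4, 109 and 58.3 CPM (log2 fold change -1.42 ± 0.27, adjusted p = 0.00124, edgeR). Cry2 went from 147, 118 and 129 CPM to 83.2, 91.3 and 86.7 CPM (-0.59 ± 0.11, adjusted p = 0.00119). Neither gene overlapped between these groups. Hlf (-0.72 ± 0.25), Per3 (-0.7 ± 0.19), Dbp (-0.68 ± 0.25), Nr1d2 (-0.56 ± 0.17), Tef (-0.47 ± 0.16) and Per2 (-0.29 ± 0.08) had adjusted p-values between 0.0127 and 0.0494. The Dbp call was lost with DESeq2 size factors (adjusted p = 0.0583), with no filter (0.0779), with the replicate block (0.0687) and with the adipocyte covariate (0.0595). Hlf was lost with no filter (0.0638) and with the block (0.0604), and Tef with the covariate (0.0531). Per1 (-0.14) and Arntl (-0.36) were not called. The count was 3 without DOX OIL replicate 1 or DOX P4 replicate 3, 4 without DOX P4 replicate 2, and 5 without DOX OIL replicate 3 or DOX P4 replicate 1. Nr1d1 and Cry2 were called in each of these fits. Smooth muscle markers were higher for 7 of 10 (17496 to 30839 CPM in DOX P4, 7643 to 17014 CPM in DOX OIL) and stromal markers for 6 of 8 (7852 to 10317 against 6198 to 7473 CPM). Their part in the result was not tested. The difference between the arms in the response to P4 was called for 0 of the 10 genes by edgeR and by DESeq2, and for 0.00645% of all tested genes by edgeR. At an unadjusted p under 0.05 it was found for 2 of the 10, Per2 (-0.45 ± 0.12) and Nr1d1 (-0.83), and for 3.39% of all genes.

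The other genes of the loop were read from a list of 19 further clock genes, all tested. With DOX under E2, 1 rose, 7 fell and the rest were not called, a share near the 41.0% of all tested genes called (20.4% higher, 20.6% lower). Npas2, which can take the place of Clock beside Arntl, read 22.6, 26.9 and 23.2 CPM in DOX E2 and 15.3, 14.3 and 6.71 CPM in PBS E2 (log2 fold change 1.0 ± 0.33, adjusted p = 0.0249, edgeR). The call of Npas2 was lost without PBS E2 replicate 3 (0.71, adjusted p = 0.105) or DOX E2 replicate 2 (0.92, adjusted p = 0.0706). Clock itself had 0.2 ± 0.12 (adjusted p = 0.184) and Cry1, the partner of Cry2, 0.02 ± 0.1 (adjusted p = 0.908), with a sign that changed when a library was left out (-0.04 to 0.07). A pair of repressors that bind E-boxes or their activators fell. Bhlhe41 (DEC2) went from 11.8, 24.5 and 24.2 CPM to 3.87, 4.69 and 4.93 CPM (-2.15 ± 0.29, adjusted p = 5.64e-05). Ciart went from 16.3, 13.6 and 15.6 CPM to 5.53, 4.49 and 5.63 CPM (-1.54 ± 0.24, adjusted p = 0.000179). Neither gene overlapped between the groups. Rora, a nuclear receptor that activates Arntl at the elements where REV-ERB proteins repress it, fell by 0.75 on the log2 scale (SE 0.12, adjusted p = 0.000275). Fbxl21, an F-box gene acting on cryptochromes, had -1.06 ± 0.26 and Csnk1e, a kinase of the Per proteins, -0.35 ± 0.08.

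Nfil3, which represses at the D-boxes that Dbp, Tef and Hlf activate, rose with E2 in both arms. It changed by 2.71 ± 0.35 on the log2 scale in the PBS arm and by 3.62 ± 0.36 in the DOX arm. It stood at 110, 104 and 112 CPM in DOX E2 and at 111, 52.6 and 52.8 CPM in PBS E2, where replicate 1 lay among the DOX E2 values. The difference between these groups was not called (0.59 ± 0.32, adjusted p = 0.154, edgeR), but was called without PBS E2 replicate 1 (1.04 ± 0.31, adjusted p = 0.0127). Cry1 rose with E2 by 1.05 ± 0.1 and 0.99 ± 0.1 in the PBS and DOX arms, Clock by 0.89 ± 0.12 and 0.95 ± 0.12, and Npas2 by 1.07 ± 0.34 and 2.0 ± 0.34. In the PBS arm the Npas2 call was lost without PBS OIL replicate 3 (0.84) or PBS E2 replicate 1 (0.86). Ciart rose with E2 in the PBS arm (1.43 ± 0.24) and fell in the DOX arm (-0.6 ± 0.24, adjusted p = 0.0319). The fall of Ciart was no longer called without DOX OIL replicate 1 (-0.34), DOX OIL replicate 3 (-0.61) or DOX E2 replicate 2 (-0.51). Bhlhe41 fell with E2 in both arms, by 0.72 (SE 0.26) and 2.71 (SE 0.29). Its fall in the PBS arm was lost without PBS OIL replicate 2 (-0.52) or PBS E2 replicate 1 (-0.44).

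Over the list, E2 raised 9 and lowered 9 of the 19 genes in the PBS arm and raised 8 and lowered 11 in the DOX arm, beside 61.4% and 72.6% of all tested genes called. The interaction of E2 and DOX was called for 5 of the 19, all negative. Of all tested genes 22.9% were called, 12.8% negative and 10.1% positive. The largest were those of Ciart (-2.03 ± 0.34, adjusted p = 0.00103, edgeR) and Bhlhe41 (-1.99 ± 0.38, adjusted p = 0.00267). Without PBS E2 replicate 1 these counts were 8 raised and 7 lowered for E2 in the PBS arm, and 1 positive and 6 negative for the interaction. Under OIL and under P4, DOX changed 0 of the 19. P4 raised 2 and lowered 6 in the PBS arm, and raised 1 and lowered 6 in the DOX arm, beside 31.8% and 29.8% of all tested genes. Clock rose with P4 by 0.59 ± 0.12 and 0.61 ± 0.12 in the PBS and DOX arms.

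**Figure D4:**
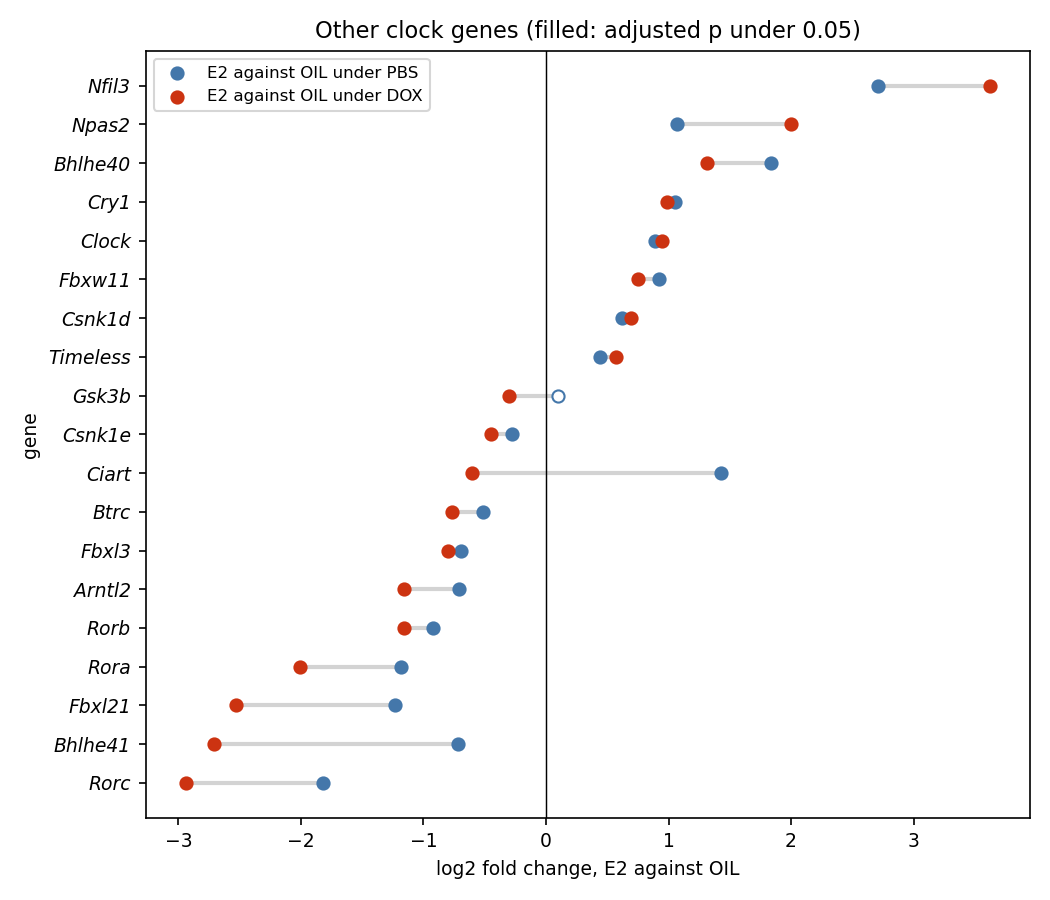
Fitted log2 fold changes for E2 against OIL in the PBS and DOX arms, for the 19 further clock genes. Filled points passed an adjusted p of 0.05. Nfil3 lies furthest above 0 in both arms, and Ciart lies above 0 in the PBS arm and below 0 in the DOX arm.

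Genes that cycle with the clock in many tissues were read from a list of 10 outputs. With DOX under E2, 6 fell and 1 rose, where 41.0% of all tested genes were called, 20.6% lower and 20.4% higher. Tsc22d3, which encodes the glucocorticoid-induced leucine zipper, changed by -1.55 ± 0.16 on the log2 scale (adjusted p = 8.74e-06, edgeR). Wee1, a kinase that holds back mitosis, changed by -1.32 ± 0.19 (adjusted p = 0.000109). Por, the reductase of cytochrome P450 enzymes, had -0.71 ± 0.14, and Lpin1, a phosphatidate phosphatase, -2.25 ± 0.46. The change of Lpin1 was -1.19 ± 0.26 without PBS E2 replicate 1. The gene that rose was Pdk4, a pyruvate dehydrogenase kinase (1.16). Its call was lost when PBS E2 replicate 2 (0.88), PBS E2 replicate 3 (0.97), DOX E2 replicate 2 (1.09) or DOX E2 replicate 3 (0.95) was left out, and it was 1.82 without PBS E2 replicate 1. Glucocorticoids also set peripheral clocks, and of 11 tested glucocorticoid receptor targets 5 rose and 4 fell in the same comparison. Mt2, a metallothionein, rose by 1.43, while Zbtb16 (-1.7 ± 0.3) and Klf9 (-1.24 ± 0.24) fell, as did Tsc22d3. Per1 is on this list as well, so the lists are not separate evidence. These targets did not move in 1 direction, and a part of glucocorticoids in the result was not tested.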

How the data were processed

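Total RNA of whole uterus was sequenced from TruSeq libraries, per the labels. The authors deposited whole-number counts per gene symbol. The submitters' processing notes name Trimmomatic 0.36, HISAT2 2.1.0, SAMtools 1.6, StringTie 1.3.4d and build GRCm38. Not given in the sources used here are the annotation and strand setting. Counts were filtered with filterByExpr and scaled by TMM in edgeR 4.0.16 (R 4.3.3), and CPM uses those library sizes. A robust quasi-likelihood model of the 6 groups, with 12 residual degrees of freedom, gave 9 comparisons by F test. P-values were adjusted by Benjamini-Hochberg over all tested genes (threshold 0.05), and SE is the log2 fold change over the square root of F. The scripts were tested on simulated data. Replicates were no copies of each other (chi-square per degree of freedom at least 15.7).

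Alternatives were DESeq2 size factors, the Wald test of DESeq2 1.42.0, no filter, a stricter filter (1 CPM in 3 libraries), a model without the groups outside the comparison, a block for the replicate number, an adipocyte score as a covariate, and each library left out in turn. Leaving libraries out for the genes and lists beside the 10 was chosen after seeing the data. The text names all 10 genes, genes overlapping them, 6 other clock genes, the 4 genes most like Dbp and Arntl, and up to 4 others per list with the smallest p for DOX under E2. A result that falls under this rule is not reported here. Genes named beyond this rule (Pdk4, Adipoq, Plin1) were chosen after their values were seen. The members and lists were chosen with earlier results of these data known.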

Additional observations from a re-analysis of the deposited data

Results flagged for a closer look

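For 8 genes the response to E2 differed between the DOX and PBS arms in edgeR's interaction test. The difference in log2 fold change (DOX arm minus PBS arm) was -3.3 for Dbp, -3.1 for Nr1d1, -2.02 for Hlf, -1.95 for Per3, -1.85 for Per1, -1.78 for Tef, -1.59 for Nr1d2 and -0.66 for Per2. Per1 and Per2 had fitted E2 responses above 0 in the PBS arm (0.37, not called, and 0.6) and below 0 in the DOX arm (-1.48, and -0.07, not called). The other 6 genes were below 0 in both arms. These differences rest on the same DOX E2 libraries as the comparison of DOX under E2. Groups of 3 were not tested for single libraries that stand apart.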

How the results depend on the processing

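For the 10 genes, 129 of 130 alternative fits of DOX under E2 kept the direction and the side of the threshold, as did 130 of 130 for E2 in the DOX arm, 128 of 130 for E2 in the PBS arm and 187 of 190 for the interaction of E2 and DOX. For P4 it was 118 of 130 in the PBS arm and 102 of 130 in the DOX arm. With the replicate number as a block 1 gene was called for P4 in the PBS arm (2 without it; Per3 -0.55, adjusted p = 0.0548), and in the DOX arm Dbp (adjusted p = 0.0687) and Hlf (adjusted p = 0.0604) were lost. The block changed no other call of these genes. Samples with the same number deviated together in 12 of 45 pairs (correlation over 0.1, range -0.282 to 0.365). The mean correlation was -0.006 for the same number and 0.003 for other numbers. Between the PBS and DOX arms the same-number values were 0.279, 0.365 and 0.085 under OIL, -0.168, -0.033 and 0.14 under E2, and 0.172, -0.028 and 0.16 under P4. With 3 libraries per group this check cannot decide whether the numbers pair the samples. With the adipocyte covariate P4 in the PBS arm had 0 of these genes and 3261 of all genes (4930 without it), and DOX under E2 had 3768 of all genes (6358 without it). In the former, Per3 (-0.63 ± 0.24) and Cry2 (-0.34 ± 0.14) kept similar estimates with a wider SE.

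Leaving out libraries gave 0 to 3 of the 10 genes for P4 in the PBS arm and 3 to 8 in the DOX arm, with 3149 to 4434 and 3057 to 3881 of all genes (4618 in the latter with every library). For DOX under OIL, 2 of all genes became 21 with DESeq2's Wald test, 0 with the block, 0 with the covariate and 0 to 2 without a library. For DOX under P4 the Wald test gave 9 in place of 0. For the interaction of P4 and DOX, 1 gene became 2 with the Wald test, 0 with the stricter filter, only the groups compared, the block or the covariate, and 0 to 1 without a library. Uncalled values that changed sign without a library were, for DOX under OIL, Cry2 (-0.12 to 0.03), Per1 (-0.26 to 0.09), Dbp (-0.14 to 0.2), Per3 (-0.12 to 0.07), Tef (-0.13 to 0.01) and Nr1d1 (-0.14 to 0.31). The others were Cry2 for DOX under E2 (-0.18 to 0.01) and in its interaction (-0.15 to 0.05), Nr1d2 (-0.16 to 0.01) and Arntl (-0.36 to 0.06) for DOX under P4, and Dbp (-0.37 to 0.04) and Per1 (-0.27 to 0.08) for P4 in the PBS and DOX arms. For DOX under E2 Cry1 (-0.04 to 0.07) and Sphk2 (-0.07 to 0.03) did so too. Apart from smaller groups, the cause was not tested. Depth limits Arntl most, at 103 to 473 counts per library.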

Other observations

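Genes whose pattern was most like that of Dbp and of Arntl were found by the root mean square difference in log2 CPM, each gene centred on its mean over the 18 libraries, among 12143 genes. For Dbp these were Pdk2, a pyruvate dehydrogenase kinase (0.345), Trpm3, a cation channel (0.368), Ppil6 (0.371) and Rab36, a small GTPase (0.375). For Arntl they were Abhd6, a monoacylglycerol lipase (0.256), Nfkb2, an NF-kB subunit (0.259), Tgfb2, a growth factor (0.305), and Serpinb9, an inhibitor of granzyme B (0.306). Likeness describes these libraries only.

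Immediate targets of cAMP and CREB, the factor that binds the CRE, rose with E2 in the PBS arm for 7 of 9 genes and fell for 0. Of all tested genes 61.4% were called, 29.6% higher and 31.9% lower. With DOX under E2, 0 of the 9 rose and 1 fell, Pde4d, a cAMP phosphodiesterase (-1.19 ± 0.18). In that comparison 41.0% of all tested genes were called, 20.4% higher and 20.6% lower.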
